A study of Mus musculus with 13 samples.

Results

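The genes described here are 39 whose products copy DNA in S phase, from the loading of the replicative helicase to the supply of nucleotides and the packaging of new chromatin. They were chosen by symbol for their function, with earlier results of these data known. Each was represented by the probe set annotated to its symbol alone, with the highest mean where several existed. All 39 were found among the 19938 genes with such a probe set, and all 39 lay above the 25th percentile of intensity on each of the 12 arrays compared. Pcna, Tk1 and Slbp had a second probe set.

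Expression was measured on Affymetrix arrays in enterocytes, the lining cells of the intestine, from mice of the 129/SVJ background. The mice were homozygous (CKIα KO) or heterozygous (CKIα Het) for a gut-specific knockout of casein kinase Iα, a kinase of the complex that destroys β-catenin, encoded by Csnk1a1. The 6 groups, of 2 arrays each, were CKIα KO and CKIα Het, CKIα KO/p21 KO and CKIα Het/p21 KO, and CKIα KO/p53 KO and CKIα Het/p53 KO. Every group therefore carried at least 1 knockout allele of CKIα, and no array of wild-type mice was analysed here. The labels call the 2 arrays of a group biological replicates and give neither the promoter of the recombinase nor the age of the mice. A further array, whose title and genotype labels disagree, entered no comparison.

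Several facts about the arrays bear on what follows. Csnk1a1 had log2 intensities between 10.44 and 10.80 on all 13 arrays. Averaged over the backgrounds, its CKIα KO minus Het difference was 0.014 (log2, 95% interval -0.16 to 0.19). Its intensity therefore checks no genotype, and where its probes lie in the gene was not examined. No probe set carried the p53 gene, Trp53, and the p21 gene, Cdkn1a, shared its probe set with another gene. Of 15 markers of absorptive enterocytes, 12 lay above the 75th percentile on all 12 arrays, as did 6 of 7 goblet cell, 4 of 6 Paneth cell and 5 of 9 lymphocyte markers. The X inactivation transcript Xist was at most 3.94 on replicate 1 arrays and at least 8.91 on replicate 2 arrays, so each group held 1 array of each kind. The replicates also differed between groups: over all tested genes the replicate SD was 0.204 in CKIα Het and 0.341 in CKIα KO/p21 KO.

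Replication begins when the origin recognition complex, with CDC6 and CDT1, loads the MCM2-7 helicase onto origins in G1 phase. In S phase CDC45 and the GINS complex activate the helicase, polymerase α with primase starts each strand, and polymerases δ and ε extend it on the sliding clamp PCNA. In the intestine, cells of the crypts divide and differentiated cells of the villi do not. E2F transcription factors drive many of these genes and are held back by the RB family of proteins. p53 activates p21, which inhibits the cyclin-dependent kinases that release E2F from RB, and p21 also binds PCNA.

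Promoters of 6 members are printed because they set the genes with the largest and smallest responses in p53 KO mice beside the letters that E2F factors bind. Rrm1, Rrm2 and Mcm3 had the largest, and Gins3 and Slbp the smallest, difference between CKIα KO/p53 KO and CKIα Het/p53 KO among members with a sequence. Mcm6 was added after the matches were seen, because it held the most. Each window runs from 250 bases before the gene's start to 50 bases after it, on the gene's own strand, and is from RefSeq, build GRCm38.p6. Capitals mark matches to the E2F words TTTCCCGC, TTTCGCGC, TTTGCCGC and TTTGGCGC or to the CHR word TTTGAA (bound by the DREAM and MuvB complexes), on either strand.
Rrm1, chr7:102441445-102441744, plus strand: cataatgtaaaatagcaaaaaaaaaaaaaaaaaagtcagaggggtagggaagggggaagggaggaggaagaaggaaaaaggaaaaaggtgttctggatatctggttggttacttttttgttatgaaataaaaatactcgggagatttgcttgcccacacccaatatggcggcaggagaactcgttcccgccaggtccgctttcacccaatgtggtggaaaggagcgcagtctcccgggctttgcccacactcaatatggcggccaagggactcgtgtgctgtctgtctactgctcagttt
Rrm2, chr12:24708004-24708303, plus strand: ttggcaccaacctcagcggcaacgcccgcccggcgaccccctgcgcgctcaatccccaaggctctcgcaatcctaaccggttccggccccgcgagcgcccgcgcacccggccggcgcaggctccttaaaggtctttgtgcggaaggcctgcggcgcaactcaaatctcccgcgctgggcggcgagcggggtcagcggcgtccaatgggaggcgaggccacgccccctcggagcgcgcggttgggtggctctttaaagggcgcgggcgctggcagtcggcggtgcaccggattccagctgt
Mcm3, chr1:20820263-20820562, minus strand: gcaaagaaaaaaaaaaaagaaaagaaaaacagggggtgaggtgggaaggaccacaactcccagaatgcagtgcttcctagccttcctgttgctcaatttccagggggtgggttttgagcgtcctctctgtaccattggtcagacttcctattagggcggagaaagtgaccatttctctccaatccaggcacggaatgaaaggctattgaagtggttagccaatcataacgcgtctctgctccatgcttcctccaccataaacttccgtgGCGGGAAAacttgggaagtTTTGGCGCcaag
Mcm6, chr1:128359656-128359955, minus strand: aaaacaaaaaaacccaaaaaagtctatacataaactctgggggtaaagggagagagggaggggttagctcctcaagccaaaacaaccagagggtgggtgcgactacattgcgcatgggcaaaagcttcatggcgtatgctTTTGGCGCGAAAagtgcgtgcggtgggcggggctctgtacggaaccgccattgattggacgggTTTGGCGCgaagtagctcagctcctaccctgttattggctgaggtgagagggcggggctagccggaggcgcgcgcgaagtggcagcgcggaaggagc
Gins3, chr8:95633309-95633608, plus strand: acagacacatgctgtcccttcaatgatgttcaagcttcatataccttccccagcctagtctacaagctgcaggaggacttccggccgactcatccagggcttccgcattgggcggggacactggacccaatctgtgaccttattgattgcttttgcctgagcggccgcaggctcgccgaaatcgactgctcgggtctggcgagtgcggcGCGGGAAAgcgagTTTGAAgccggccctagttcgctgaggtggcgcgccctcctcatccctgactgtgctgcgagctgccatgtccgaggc
Slbp, chr5:33652525-33652824, minus strand: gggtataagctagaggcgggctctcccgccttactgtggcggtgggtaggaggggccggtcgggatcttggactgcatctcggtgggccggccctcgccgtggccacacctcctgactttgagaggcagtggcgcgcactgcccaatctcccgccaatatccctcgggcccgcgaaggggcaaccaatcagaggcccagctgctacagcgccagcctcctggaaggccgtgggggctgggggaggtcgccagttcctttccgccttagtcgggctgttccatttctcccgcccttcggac

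With the first transcribed base as 1, Mcm3 held E2F words at 20 to 27 and at 39 to 46. Mcm6 held 1 at -47 to -40 and 2 that overlap each other, at -110 to -103 and at -106 to -99. Gins3 held an E2F word at -41 to -34 and the CHR word at -28 to -23, which do not overlap. No E2F or CHR word was found in these windows of Rrm1, Rrm2 and Slbp. A window was at hand for 35 of the 39 members, and 15 of these 35 held at least 1 E2F word. Those words were in 35.71% of the members' 42 windows, against 2.26% of all 32851 windows and 3.47% of the windows whose GC content fell in the middle range of the members'. Of the members called higher in the p53 KO comparison below, 8 of 21 with a window held an E2F word, as did 7 of 14 of the members not called. The CHR word was in 11.9% of the members' windows and in 17.89% of all windows. These are counts of letters in 1 window per start site, and they identify no bound site.

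**Figure D1:**
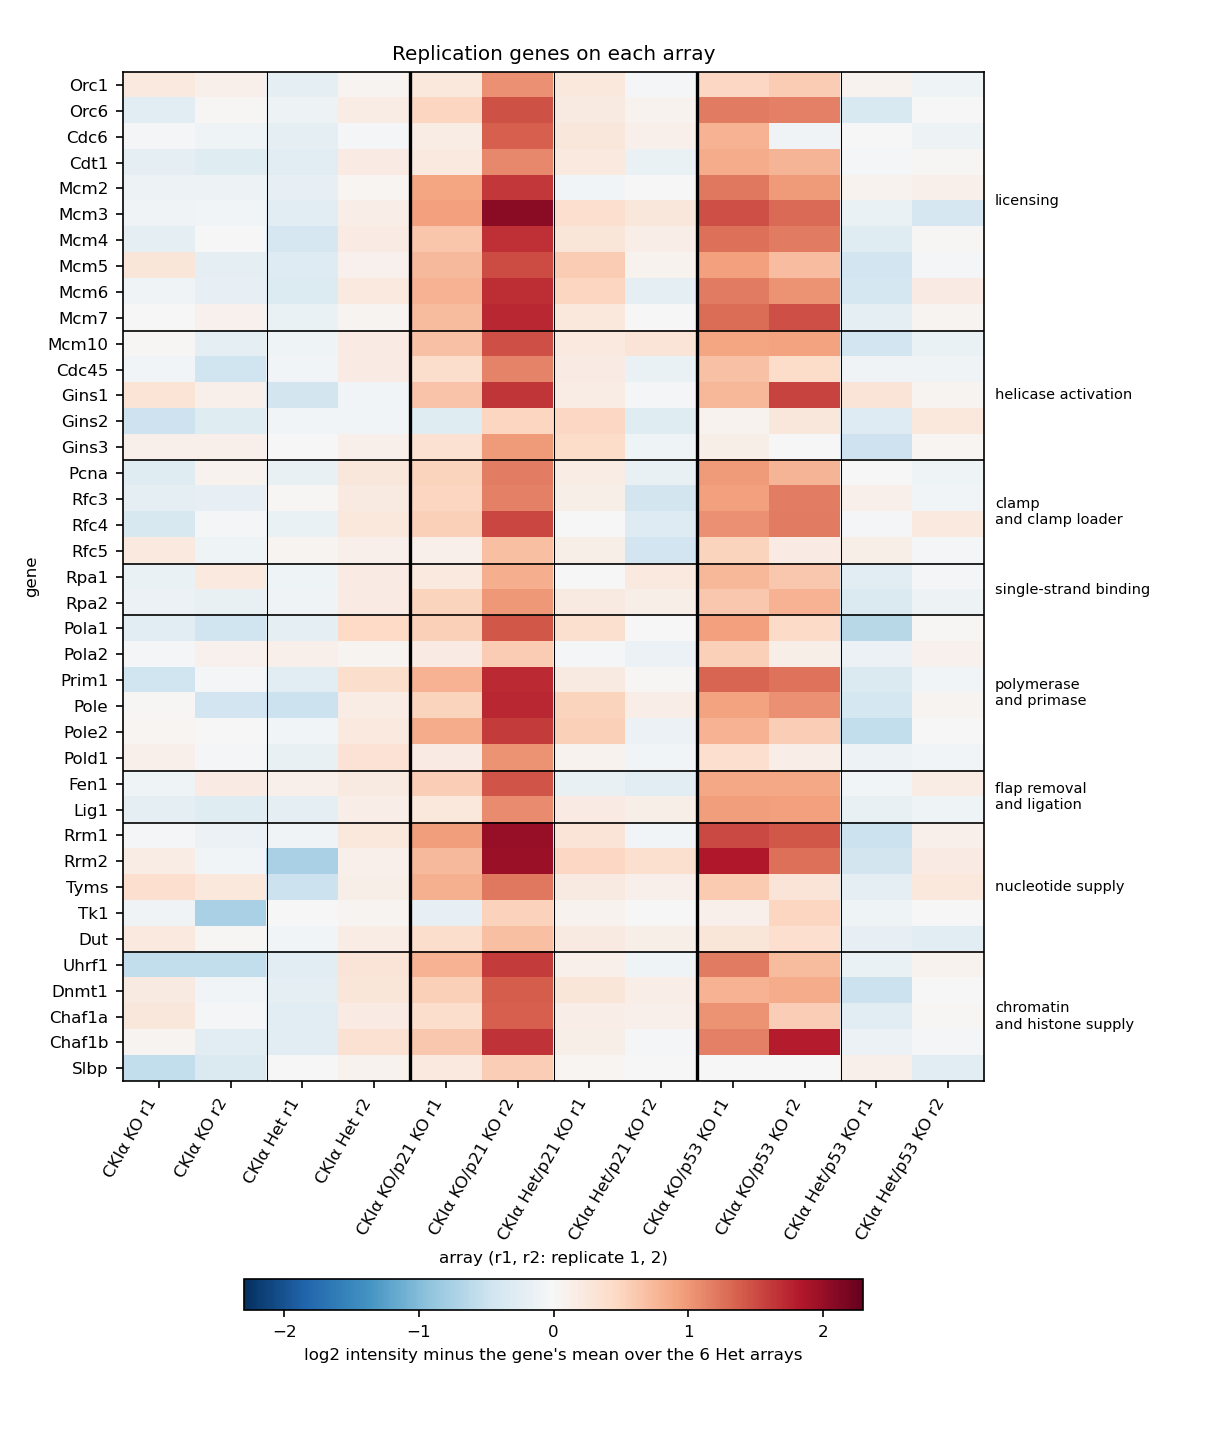
Log2 intensity of each of the 39 genes (rows, by role) on each of the 12 arrays (columns), minus that gene's mean over the 6 Het arrays; red is higher and blue is lower. The 4 arrays of the CKIα KO/p21 KO and CKIα KO/p53 KO groups are mostly red, CKIα KO/p21 KO replicate 2 is the deepest for 37 genes, and the 2 CKIα KO arrays are pale.

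The first question was what loss of CKIα did to these genes while p53 and p21 were present. No member passed the test between CKIα KO and CKIα Het. In limma, fitted over 16721 genes with the spread of all 6 groups pooled, 0 members were higher (0.0239% of tested genes were) and 0 were lower (0% of tested genes were) at an adjusted p under 0.05. At an unadjusted p under 0.05, 1 member was lower (3.52% of tested genes) and 0 were higher (5.57%), and every alternative setting also called 0 members. The members' differences had a median of -0.08 (log2), against 0.02 over all tested genes, and 11 of 39 were above 0 (53.8% of tested genes). For 36 of the 39 genes, the 95% interval of the difference lay below a log2 of 1, which is a 2-fold increase; the intervals of Gins1, Rrm2 and Tyms reached 1.19, 1.28 and 1.02.

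The helicase subunit Mcm2 had log2 intensities of 7.03 and 7.03 on the CKIα KO arrays and of 6.96 and 7.19 on the CKIα Het arrays. These overlapped, and the difference was -0.04 ± 0.21 (log2, SE, n = 2 per group). Uhrf1, which brings the maintenance methyltransferase to newly copied DNA, had 6.12 and 6.12 on CKIα KO arrays and 6.45 and 6.98 on CKIα Het arrays. Its difference of -0.59 ± 0.28 was the most negative of the 39 (limma adjusted p = 0.576). Tyms, thymidylate synthase, had 7.09 and 6.95 on CKIα KO arrays and 6.22 and 6.84 on CKIα Het arrays, and its difference of 0.49 ± 0.24 was the most positive (adjusted p = 0.596). Slbp, which binds the stem-loop of histone mRNAs, had 7.23 and 7.45 on CKIα KO arrays and 7.80 and 7.88 on CKIα Het arrays. It was the 1 gene with an unadjusted p under 0.05, at -0.50 ± 0.17 (adjusted p = 0.377). The groups of Uhrf1, Tyms and Slbp did not overlap. That held for 3 members higher in CKIα KO (22.3% of tested genes) and for 7 members lower (16.8%). Without CKIα Het replicate 2 the members' median was 0.07, so its sign rested on that array.

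With p53 knocked out, replication genes rose in CKIα KO/p53 KO enterocytes relative to CKIα Het/p53 KO enterocytes. Of the 39, 22 were higher in the limma test, where 11% of tested genes were, and 0 were lower, where 6.82% were. At an unadjusted p under 0.05, 30 members were higher (18.5% of tested genes) and 0 lower (16%). All 39 differences were above 0 (43.6% of tested genes), with a median of 0.99 (log2) against -0.06 over all tested genes. Both CKIα KO/p53 KO arrays lay above both CKIα Het/p53 KO arrays for 35 members, and for 28.9% of tested genes. The count of 22 became 16 after quantile normalization, and 15 of these were among the 22. The count also depended on single arrays. It was 0 without CKIα Het/p53 KO replicate 1, where limma called 10 genes higher in all. Leaving out CKIα KO/p53 KO replicate 2 also gave 0. The other array of each group gave 4 (CKIα Het/p53 KO replicate 2) and 6 (CKIα KO/p53 KO replicate 1). The members' median stayed between 0.82 and 1.03 with single arrays left out. In RNA pooled from many cells, a change in the share of dividing cells and a change in RNA per cell cannot be told apart.

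Licensing genes held 7 of the 22. All 6 MCM2-7 subunits rose, with Mcm3 at 8.24 and 8.06 on the CKIα KO/p53 KO arrays and 6.60 and 6.37 on the CKIα Het/p53 KO arrays. Its difference was 1.66 ± 0.30 or 3.16-fold (limma adjusted p = 0.01), and the groups were well apart. Mcm7 was 1.46 ± 0.28 higher, Mcm4 1.36 ± 0.31, Mcm6 1.22 ± 0.34, Mcm5 1.06 ± 0.29 and Mcm2 1.00 ± 0.21 (log2, SE), with adjusted p between 0.0111 and 0.0358. Orc6, a subunit of the origin recognition complex, had 7.02 and 6.98 on CKIα KO/p53 KO arrays and 5.48 and 5.81 on CKIα Het/p53 KO arrays (difference 1.35 ± 0.28, adjusted p = 0.0134). The loading factors were not called. Cdt1 was at 0.82 ± 0.26 (adjusted p = 0.0578), and Orc1, the largest origin recognition subunit, was at 0.54 ± 0.24 (adjusted p = 0.141). Cdc6 had 7.20 and 6.32 on CKIα KO/p53 KO arrays and 6.42 and 6.28 on CKIα Het/p53 KO arrays, so these groups overlapped, and 1 array carried the difference of 0.41 ± 0.36.

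Of the genes that activate the helicase, Mcm10 rose and the others did not pass. Mcm10 had 7.65 and 7.67 on CKIα KO/p53 KO arrays and 6.29 and 6.58 on CKIα Het/p53 KO arrays (1.22 ± 0.24, adjusted p = 0.012). Cdc45 was at 0.64 ± 0.25. The 3 GINS subunits differed in size although they act in 1 complex: Gins1 was at 0.99 ± 0.33 (adjusted p = 0.0627), Gins3 at 0.29 ± 0.25 and Gins2 at 0.20 ± 0.30. The tests of these 3 do not compare them with each other. The sliding clamp Pcna had 10.45 and 10.24 on CKIα KO/p53 KO arrays and 9.47 and 9.37 on CKIα Het/p53 KO arrays, a difference of 0.92 ± 0.24 (adjusted p = 0.0304). Its second probe set gave 0.93. Of the clamp loader subunits, Rfc3 and Rfc4 rose by 1.04 ± 0.24 and 1.03 ± 0.29, and Rfc5 was at 0.30 ± 0.24 (adjusted p = 0.406).

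Both subunits of the single-strand binding protein RPA rose, Rpa2 by 0.92 ± 0.18 and Rpa1 by 0.84 ± 0.22. So did both enzymes that finish the lagging strand, the flap endonuclease Fen1 by 0.85 ± 0.25 and the ligase Lig1 by 1.09 ± 0.24. Among 6 polymerase and primase genes 1 was called. The catalytic primase subunit Prim1 had 7.85 and 7.76 on CKIα KO/p53 KO arrays and 6.18 and 6.45 on CKIα Het/p53 KO arrays (1.49 ± 0.30, adjusted p = 0.0129). Catalytic subunits of 2 other polymerases lay near the threshold, Pole at 1.16 ± 0.38 (adjusted p = 0.0591) and Pola1 at 1.00 ± 0.35 (adjusted p = 0.0713), as did the accessory subunit Pole2 at 0.97 ± 0.30 (adjusted p = 0.0513). Pold1 and Pola2 were at 0.36 ± 0.26 and 0.35 ± 0.18.

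Among the 39 members, Rrm1, Rrm2 and Mcm3 had nearly equal differences at the top of the range. Rrm1 and Rrm2 encode the large and small subunits of ribonucleotide reductase, which makes deoxyribonucleotides. Rrm1 had 9.86 and 9.77 on CKIα KO/p53 KO arrays and 7.84 and 8.45 on CKIα Het/p53 KO arrays. The groups did not overlap, and the difference was 1.67 ± 0.32 or 3.18-fold (limma adjusted p = 0.0113). Rrm2 had 8.91 and 8.34 on CKIα KO/p53 KO arrays and 6.66 and 7.27 on CKIα Het/p53 KO arrays (1.66 ± 0.41, adjusted p = 0.0242). Dut, which removes dUTP, rose by 0.55 ± 0.15. The thymidylate genes did not pass, Tyms being at 0.43 ± 0.24 and thymidine kinase Tk1 at 0.36 ± 0.26, or 0.12 on its second probe set.

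Among genes of chromatin copying, 3 of 5 rose. Chaf1b, a subunit of the histone chaperone CAF-1, had 7.28 and 7.94 on CKIα KO/p53 KO arrays and 5.98 and 6.08 on CKIα Het/p53 KO arrays (1.58 ± 0.34, adjusted p = 0.016). The maintenance methyltransferase Dnmt1 rose by 1.06 ± 0.28 and Uhrf1 by 0.99 ± 0.28, and the large CAF-1 subunit Chaf1a was at 0.90 ± 0.30 (adjusted p = 0.0644). Slbp showed next to no difference, with 7.80 and 7.79 on CKIα KO/p53 KO arrays and 7.91 and 7.54 on CKIα Het/p53 KO arrays. Its value of 0.07 ± 0.17 was the smallest of the 39. It turned to -0.052 after quantile normalization, to -0.067 with its probe sets averaged and to -0.11 without CKIα Het/p53 KO replicate 2, and its second probe set gave -0.21.

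**Figure D2:**
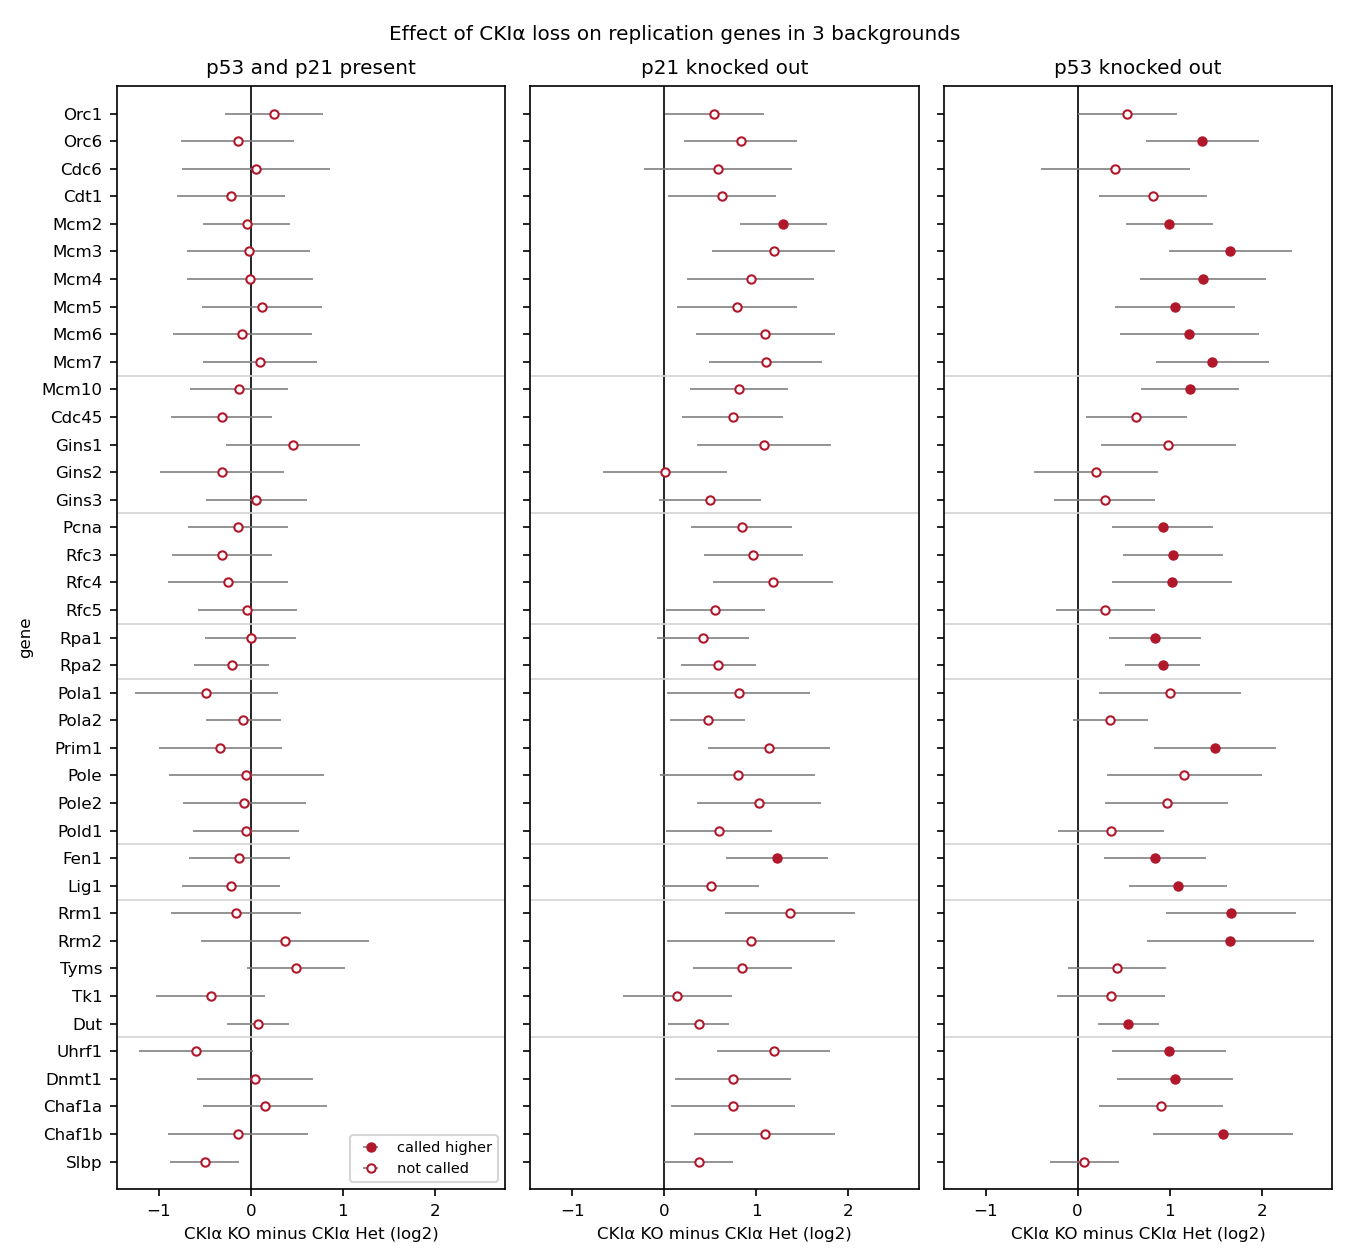
CKIα KO minus CKIα Het difference (log2, points) with its 95% interval (lines) for each gene in mice with both p53 and p21, in p21 KO mice and in p53 KO mice; filled points passed an adjusted p of 0.05 in limma. Filled points number 0, 2 and 22 in that order, and every point in the p21 and p53 panels lies right of 0.

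With p21 knocked out, the differences again pointed 1 way but fewer passed. Between CKIα KO/p21 KO and CKIα Het/p21 KO, 2 of 39 members were higher in limma (1.46% of tested genes) and 0 lower (0.514% of tested genes). At an unadjusted p under 0.05, 31 members were higher (14% of tested genes) and 0 lower (9.2%). All 39 differences were above 0 (48.9% of tested genes), Gins2 only at 0.01 and at -0.094 after quantile normalization. Their median was 0.81 against -0.01 over all tested genes. Both CKIα KO/p21 KO arrays lay above both CKIα Het/p21 KO arrays for 33 members, and for 26.9% of tested genes.

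The genes that rose were Mcm2 and Fen1. Mcm2 had 8.05 and 8.78 on CKIα KO/p21 KO arrays and 7.09 and 7.14 on CKIα Het/p21 KO arrays, a difference of 1.29 ± 0.21 or 2.45-fold (limma adjusted p = 0.0336, and 0.00138 to 0.322 over 19 alternatives). Fen1 had 6.86 and 7.76 on CKIα KO/p21 KO arrays and 6.13 and 6.04 on CKIα Het/p21 KO arrays, at 1.22 ± 0.25 (adjusted p = 0.0481, and 0.00161 to 0.322 over the alternatives). Neither pair of groups overlapped. The largest difference was again that of Rrm1, which had 9.29 and 10.33 on CKIα KO/p21 KO arrays and 8.62 and 8.26 on CKIα Het/p21 KO arrays (1.37 ± 0.32, adjusted p = 0.0565). After Rrm1, Mcm2 and Fen1 came Uhrf1, Mcm3, Rfc4 and Prim1, at 1.19 ± 0.28, 1.19 ± 0.30, 1.19 ± 0.29 and 1.14 ± 0.30, with adjusted p between 0.0568 and 0.0699. At the low end, Tk1 was at 0.14 ± 0.26.

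The 2 CKIα KO/p21 KO arrays stood apart from each other. Replicate 2 was above replicate 1 for all 39 members, by a median of 0.84 (log2), and by over 0.5 for 34 of them, against 10.2% of tested genes. In the other 5 groups this median lay between -0.17 and 0.33. Rrm2 showed the widest gap, with 7.82 on replicate 1 and 9.06 on replicate 2. CKIα KO/p21 KO replicate 2 was the highest of the 12 arrays for 37 of 39 members (13.7% of tested genes), and CKIα KO/p53 KO replicate 2 for Rfc3 and Chaf1b. The count of 2 called genes moved with these arrays, as did the number called over all tested genes. Each such fit leaves 1 array in a group and takes that group's spread out of the pooled estimate. The members' median was 1.22 without CKIα KO/p21 KO replicate 1 and 0.37 without replicate 2. The count also fell when any other single array was left out.

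**Figure D3:**
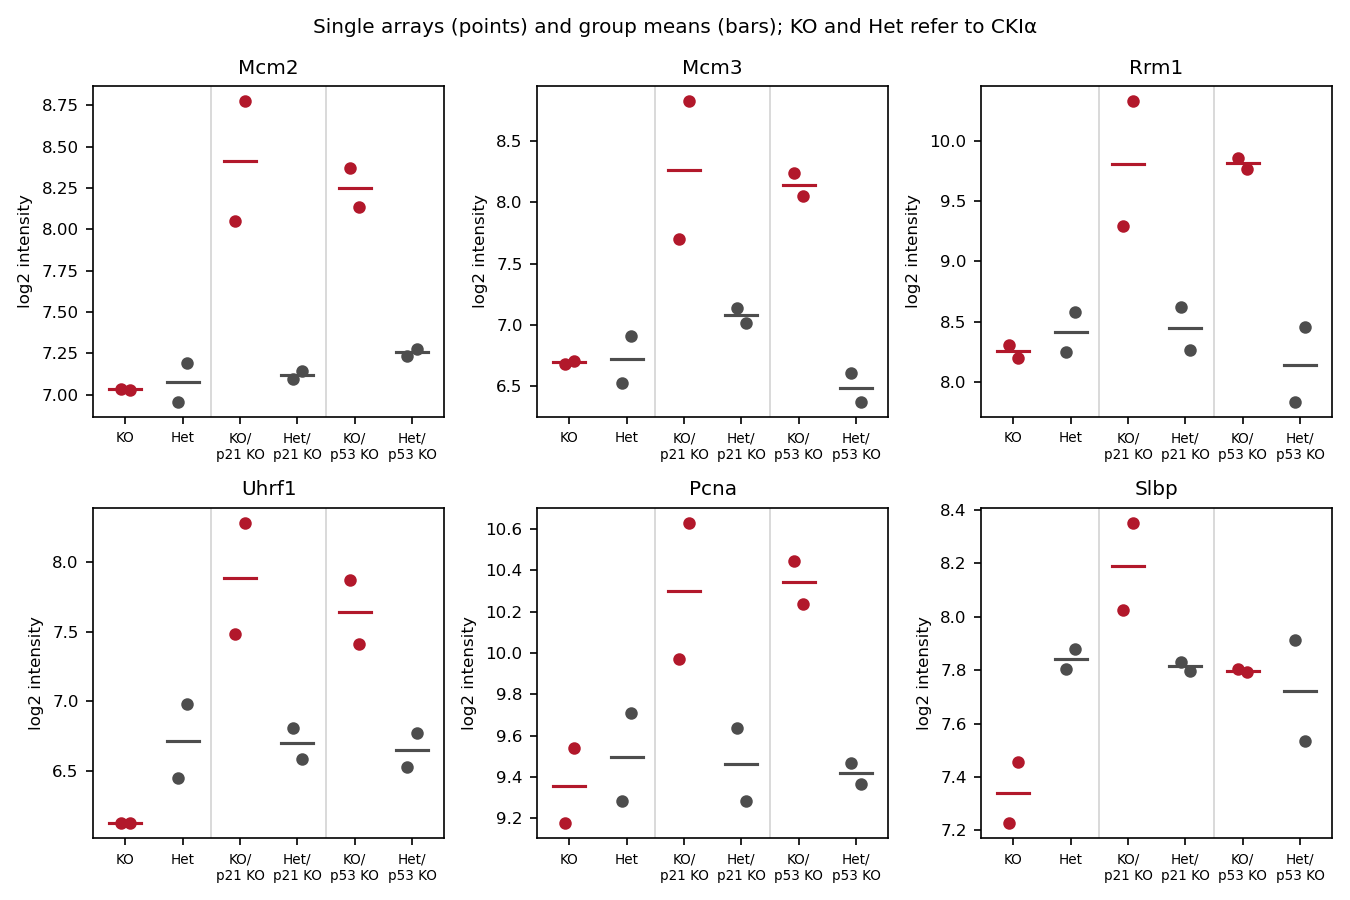
Log2 intensity on each array (points) and the mean of each group (bars) for 6 genes; each panel has its own axis, and KO and Het refer to CKIα. Mcm2 lies between 8.05 and 8.78 on the arrays of CKIα KO/p21 KO and CKIα KO/p53 KO mice and between 6.96 and 7.27 on the others, while Slbp is highest in CKIα KO/p21 KO, at 8.02 and 8.35. For Slbp, the CKIα KO minus Het difference in p21 KO mice is 0.37 on the probe set shown and 0.02 on its second probe set.

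Direct comparisons within CKIα KO mice asked what loss of p53 or p21 added. They share the CKIα KO arrays. Between CKIα KO/p53 KO and CKIα KO, 2 members were higher in limma (0.466% of tested genes) and 0 lower (0.227%), and 29 were higher at an unadjusted p under 0.05 (12.9%). With the replicate number as a block in the fit, a number that also separates the arrays by Xist, limma called 13 members higher. Over all tested genes it then called 218 higher, against 78 without the block. The 2 without the block were Uhrf1, with 7.87 and 7.41 on CKIα KO/p53 KO arrays and 6.12 and 6.12 on CKIα KO arrays (1.52 ± 0.28, adjusted p = 0.0472), and Mcm2, at 1.22 ± 0.21 (adjusted p = 0.0458). Gins3, at -0.05 ± 0.25, was the member not above 0 (45.8% of tested genes were above), and the median was 0.94. The count of members rose without either CKIα KO/p21 KO array and fell when any other single array was left out. The number called over all tested genes moved in these fits too. The median lay between 0.89 and 1.05 with single arrays left out. Between CKIα KO/p21 KO and CKIα KO, limma called 0 members higher (0.0239% of tested genes) and 0 lower (0.012%), while 31 were higher at an unadjusted p under 0.05 (7.2%). All 39 differences were above 0 (43.6% of tested genes), with a median of 0.97. Uhrf1 was again the largest, with 7.49 and 8.29 on CKIα KO/p21 KO arrays (1.76 ± 0.28, adjusted p = 0.105). That count of 0 rose without CKIα KO/p21 KO replicate 1, where more genes were called over all tested genes too. It did not change under any other alternative. The median lay between 0.65 and 1.41 with single arrays left out.

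No member passed the test between the combined knockouts. Between CKIα KO/p53 KO and CKIα KO/p21 KO 0 members were higher (0.114% of tested genes) and 0 lower (0.215%), with 3 lower (3.97%) and 0 higher (5.05%) at an unadjusted p under 0.05 and 0 called in any fit with an array left out. The median difference was -0.09, and it was -0.52 without CKIα KO/p21 KO replicate 1 and 0.34 without replicate 2, so its sign rested on these arrays. The 3 lower genes were Gins3 (-0.59 ± 0.25), Tyms (-0.57 ± 0.24) and Slbp (-0.39 ± 0.17), with adjusted p between 0.515 and 0.529. A p of this size does not show that the groups are alike.

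In CKIα Het mice, loss of p53 or p21 was not followed by a called difference in any member. Between CKIα Het/p53 KO and CKIα Het, limma called 0 members (0% of tested genes higher and 0% lower), with 0 higher at an unadjusted p under 0.05 (3.33%), 0 lower (2.3%), and a median of -0.11. The members ranged from -0.44 (Pola1) to 0.42 (Gins1). Between CKIα Het/p21 KO and CKIα Het, it called 0 members (0.00598% of tested genes higher and 0% lower), with 0 higher at an unadjusted p under 0.05 (2.51%), 0 lower (2.49%), and a median of 0.11. These ranged from -0.38 (Fen1) to 0.74 (Rrm2). Every fit with an array left out called 0 members in both comparisons. The sign of the first median turned without CKIα Het replicate 2, to 0.04. The second turned without CKIα Het replicate 1, to -0.05, and also without CKIα Het/p21 KO replicate 1.

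Whether the effect of CKIα loss itself differed between backgrounds was tested as a difference of differences, in which the CKIα KO and CKIα Het arrays are shared. With p53 loss, limma called 0 members higher (0.012% of tested genes) and 0 lower (0.00598%), although 38 of 39 were above 0 (43.5% of tested genes), their median was 1.04 and 28 were higher at an unadjusted p under 0.05 (7.97%). Rrm1 (1.83 ± 0.45, adjusted p = 0.23) and Prim1 (1.82 ± 0.42, adjusted p = 0.213) were the largest. With p21 loss it called 0 members higher or lower (0% of tested genes each), with 39 above 0 (48.5% of tested genes), a median of 0.85 and 20 higher at an unadjusted p under 0.05 (4.34%). Uhrf1 was the largest there, at 1.78 ± 0.39 (adjusted p = 0.568). The count of 0 with p53 loss rose without either CKIα KO/p21 KO array, and that with p21 loss rose without replicate 1 of that group. More genes were called over all tested genes in these fits too. With single arrays left out, the medians lay between 0.87 and 1.27 with p53 loss and between 0.42 and 1.28 with p21 loss.

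Over the 3 backgrounds together, 27 members were higher in CKIα KO than in CKIα Het (15.5% of tested genes) and 0 lower (8.96%), with a median of 0.59. Rrm2 (0.99 ± 0.24), Rrm1 (0.96 ± 0.18) and Mcm3 (0.94 ± 0.17) led, and limma's adjusted p was 0.0147, 0.00634 and 0.00548 for them. The count was 13 without CKIα Het replicate 1, 15 without CKIα Het/p21 KO replicate 2 and 17 without CKIα Het/p53 KO replicate 1. Array by array, all 4 arrays of the combined knockouts lay above all 6 Het arrays for 30 members (12.5% of tested genes) and above both CKIα KO arrays for 32 (11.2%). Both CKIα KO arrays lay above all 6 Het arrays for 1 member (7.91%), which was Tyms.

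**Figure D4:**
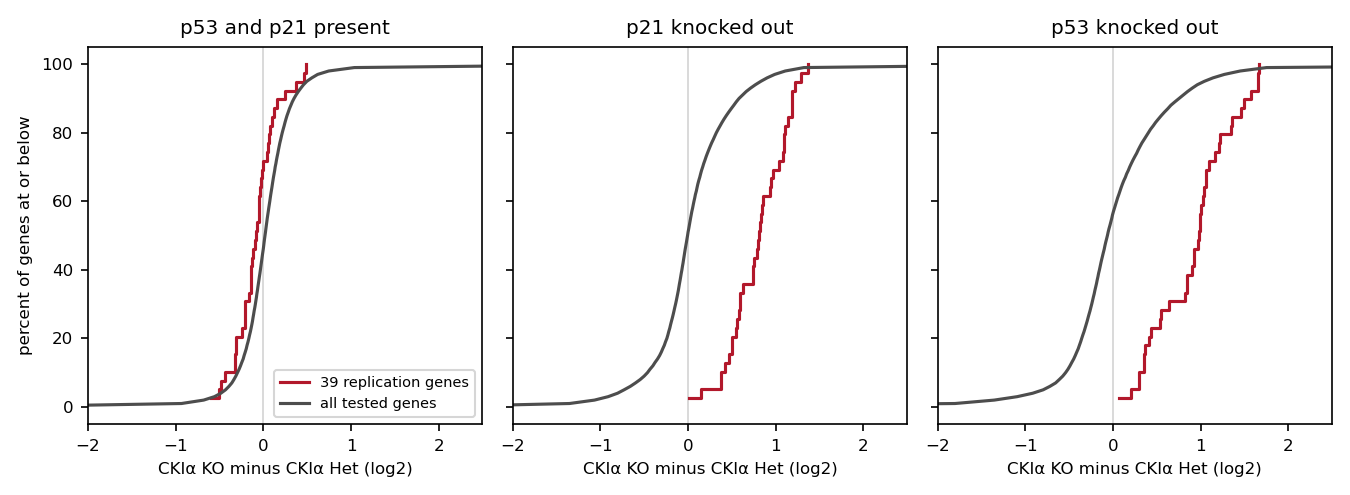
Percent of genes (vertical axis) at or below each CKIα KO minus CKIα Het difference (log2, horizontal axis) for the 39 replication genes in red and all 16721 tested genes in grey, in 3 backgrounds. The red curve has its median at -0.08 in mice with both p53 and p21, at 0.81 in p21 KO mice and at 0.99 in p53 KO mice, while the grey median stays between -0.06 and 0.02.

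A list of 50 other replication genes, also chosen with earlier results of these data known, gave counts of the same kind. Of these, 48 had a probe set of their own and were tested. Between CKIα KO/p53 KO and CKIα Het/p53 KO, 28 of 48 were higher (11% of tested genes) and 0 lower (6.82%), with a median of 0.74. Among them were the kinase activator Dbf4 (1.71 ± 0.29), the origin recognition subunits Orc2 (1.54 ± 0.22) and Orc5 (1.07 ± 0.18), the origin firing factor Mtbp (1.44 ± 0.25) and the checkpoint mediator Clspn (1.45 ± 0.27), with limma adjusted p between 0.00756 and 0.0109. Between CKIα KO/p21 KO and CKIα Het/p21 KO, 2 of 48 were higher (1.46% of tested genes) and 0 lower (0.514%), namely Orc4 (0.68 ± 0.14, adjusted p = 0.0481) and Orc5 (0.86 ± 0.18, adjusted p = 0.0485), with a median of 0.69. Between CKIα KO and CKIα Het 0 of 48 were called in limma (0.0239% of tested genes higher and 0% lower), 0 had an unadjusted p under 0.05 (9.09% of tested genes), and the median was -0.01.

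The regulators of E2F activity did not move as 1 group. Of 17 E2F, DP, RB family and MuvB genes, 2 were higher and 1 lower between CKIα KO/p53 KO and CKIα Het/p53 KO, a share near that of all tested genes (11% and 6.82%). E2f3, an activator of S-phase genes, rose by 0.94 ± 0.14 (adjusted p = 0.00763), and E2f6, a repressor of them, rose by 1.20 ± 0.22 (adjusted p = 0.0104). Rb1, the retinoblastoma gene, fell by 1.36 ± 0.22 (log2; adjusted p = 0.00783). E2f1, another activator, was at 0.46 ± 0.15 (adjusted p = 0.0609), and the RB relatives Rbl1 and Rbl2 were at -0.14 ± 0.23 and -0.38 ± 0.26. In the other 2 backgrounds limma called 0 of 17, with 4 at an unadjusted p under 0.05 between CKIα KO/p21 KO and CKIα Het/p21 KO (23.2% of tested genes) and 5 between CKIα KO and CKIα Het (9.09%). The summed linear intensity of the 17 was lower in CKIα KO, at 2739 to 2768, than in CKIα Het, at 3056 to 3302. It was 3063 to 3149 in CKIα KO/p53 KO, against 2825 to 3054 in CKIα Het/p53 KO. The ranges of CKIα KO/p21 KO and CKIα Het/p21 KO overlapped.

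Markers of cell types moved beside the replication genes. Of 9 mitotic and proliferation markers, 8 were higher between CKIα KO/p53 KO and CKIα Het/p53 KO (11% of tested genes) and 2 between CKIα KO/p21 KO and CKIα Het/p21 KO (1.46%). Their summed linear intensity lay between 2861 and 2922 in CKIα KO/p53 KO, against 1094 to 1471 in CKIα Het/p53 KO, and between 1980 and 3909 in CKIα KO/p21 KO, against 1179 to 1484 in CKIα Het/p21 KO. In CKIα KO it was 1225 to 1470 and in CKIα Het 1238 to 1404, and 0 of 9 were called there in limma, with 0 at an unadjusted p under 0.05. The topoisomerase Top2a rose by 1.29 ± 0.32 in the p53 KO comparison, and the proliferation antigen Mki67 by 1.05 ± 0.31. Of 11 crypt base markers, 6 were higher and 0 lower in that comparison. Olfm4, the marker of this list that went furthest the other way, was at -1.58 ± 0.61 (adjusted p = 0.0973). The sum of the crypt base markers was 4004 to 5259 in CKIα KO/p53 KO, against 2993 to 3176 in CKIα Het/p53 KO. It was 4135 to 5519 in CKIα KO/p21 KO, against 2007 to 3990 in CKIα Het/p21 KO. In CKIα KO it was lower, at 2316 to 3424, against 3866 to 4130 in CKIα Het.

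Markers of absorptive, goblet and enteroendocrine cells were lower in the p53 KO comparison, and those of Paneth and tuft cells were mixed. Of 15 absorptive enterocyte markers, 9 were lower (6.82% of tested genes) and 0 higher (11%) between CKIα KO/p53 KO and CKIα Het/p53 KO, with a median of -0.99. Their sum was 50560 to 55820 in CKIα KO/p53 KO, against 92450 to 99700 in CKIα Het/p53 KO. In CKIα KO/p21 KO it was 46040 to 78980, against 80560 to 85880 in CKIα Het/p21 KO, and in CKIα KO 69540 to 74880, against 75610 to 94460 in CKIα Het. The 3 brightest of them, Apoa4, Apoa1 and Anpep, were not called in the p53 KO comparison. Goblet cell markers were lower in 5 of 7 and enteroendocrine markers in 6 of 8 in that comparison, and in 2 and 3 between CKIα KO/p21 KO and CKIα Het/p21 KO (0.514% of tested genes). Between CKIα KO and CKIα Het 0 of either list were called in limma, but their sums there did not overlap. Goblet markers summed to 10870 to 15970 in CKIα KO, against 20670 to 21790 in CKIα Het, and enteroendocrine markers to 916.5 to 1539 in CKIα KO, against 2578 to 2990 in CKIα Het. Of 6 Paneth cell markers, 1 was higher and 0 lower in the p53 KO comparison, with a sum of 12580 to 16820 in CKIα KO/p53 KO, against 8060 to 9798 in CKIα Het/p53 KO. That sum was 5482 to 11670 in CKIα KO/p21 KO, against 5767 to 10480 in CKIα Het/p21 KO. In CKIα KO it was 5333 to 10830, against 10720 to 15570 in CKIα Het. Of 5 tuft cell markers, 1 was higher and 1 lower in the p53 KO comparison, with a sum of 344.9 to 413.7 in CKIα KO/p53 KO, against 172.7 to 179.7 in CKIα Het/p53 KO. Named after their values were seen, the higher ones were Mmp7 of the Paneth list (2.73 ± 0.54, adjusted p = 0.0127) and Avil of the tuft list (2.40 ± 0.40, adjusted p = 0.00813), and the lower one was Sh2d6 of the tuft list (-0.53 ± 0.16, adjusted p = 0.0447). The 9 lymphocyte markers had a median of -1.50 between CKIα KO/p21 KO and CKIα Het/p21 KO, with 0 called in limma and 9 at an unadjusted p under 0.05 (23.2% of tested genes). They summed to 1622 to 4378 in CKIα KO/p21 KO, against 5556 to 11360 in CKIα Het/p21 KO. CKIα KO/p21 KO replicate 2, the array with the highest replication genes, was also the lowest of its pair in absorptive enterocyte markers, at a median of -1.12 from the Het mean against -0.17 on replicate 1. Lum, a fibroblast marker, and Emcn, an endothelial marker, lay at or below the 25th percentile on all 12 arrays. The part of any of these cell types in the result was not tested.

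**Figure D5:**
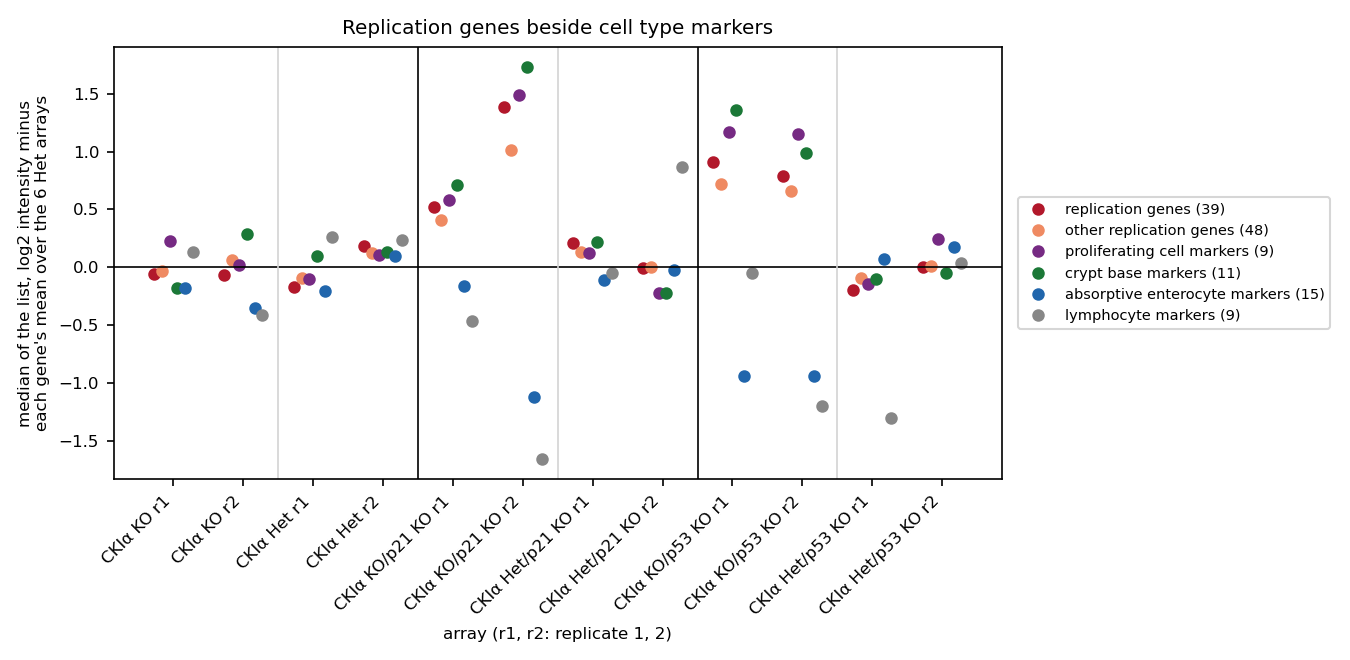
Median over each gene list of the log2 intensity minus each gene's mean over the 6 Het arrays (vertical axis), on each of the 12 arrays (horizontal axis). The replication genes stand at 0.52 and 1.39 on the CKIα KO/p21 KO arrays and at 0.91 and 0.79 on the CKIα KO/p53 KO arrays, against values from -0.19 to 0.21 on the Het arrays, and the absorptive enterocyte markers at -0.94 on both CKIα KO/p53 KO arrays.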

How the data were processed

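Per the labels' protocols, total RNA was purified with Trizol and hybridized to Affymetrix arrays, and the authors extracted intensities with Expression Console 1.1 (RMA Sketch) and normalized them by the median. The deposited values are log2 intensities per probe set; the base was taken from the values, whose array medians lie between 4.96 and 5.12. The number of arrays limits the precision. Of 35556 probe sets, 21789 carried 1 symbol in the platform annotation and were used, those with several symbols or none were not. Each gene took its probe set with the highest mean. Genes were kept if above the array's 25th percentile on 2 or more of the 12 arrays.

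The 12 arrays of 6 groups were fitted together in limma 3.58.1 (R 4.3.3), with 6 residual degrees of freedom, so p-values rest on the spread pooled over groups. Two-sided moderated p-values were adjusted by Benjamini and Hochberg over 16721 genes in each of 11 comparisons, and genes below 0.05 after adjustment were called. Errors are standard errors and intervals are 95% intervals of the fit. The fit was tested on simulated data with independent noise for each gene and the same spread in every group. Those data held no joint shift of many genes on an array and no difference in spread between groups. The alternatives were no filter, quantile normalization, an intensity trend, array weights, a replicate block, the 4 arrays of a comparison alone, averaged probe sets and leaving out each array. The array weights were equal for the 2 arrays of every group, so that setting weighted groups and could not weight single arrays.

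The members and lists were chosen with earlier results of these data known. Any member may be named. Of the other replication and E2F lists, up to 6 called genes with the smallest p and up to 3 others were named, and of each marker list up to 3 of the brightest. Promoters came from RefSeq (GRCm38.p6), for 35 members. Mcm4, Pole, Gins1 and Gins2 were not searched.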

Additional observations from a re-analysis of the deposited data

Results flagged for a closer look

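The array with conflicting labels carries the number 3 of CKIα KO/p53 KO in its title, but its genotype label is CKI KO with no p53 knockout, and it was used in no comparison. On it 30 of the 39 replication genes lay above the highest of the 6 Het arrays (21.5% of tested genes), 38 lay above their Het mean (44.6% of tested genes), and their median deviation from that mean was 0.47 (log2). Among them, Mcm2 was at 7.89, Mcm3 at 7.75 and Rrm1 at 9.21. The same median was 0.91 and 0.79 on the CKIα KO/p53 KO arrays and -0.06 and -0.07 on the CKIα KO arrays.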

How the results depend on the processing

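Of 3564 alternative values for 189 differences of members, 3174 kept their direction and their side of the threshold, 234 lost a call, 141 gained one and 15 turned direction. For CKIα KO/p21 KO against CKIα Het/p21 KO, the 2 called members were 1 with no filter, 1 after quantile normalization, 1 with array weights and 0 with its 4 arrays alone, and 0 to 31 with single arrays left out. For CKIα KO/p53 KO against CKIα Het/p53 KO, leaving out arrays gave 0 to 30 in place of 22. For CKIα KO/p53 KO against CKIα KO, the 2 were 1 with no filter, 0 with array weights, 0 with 4 arrays and 0 to 22 with arrays left out. The other ranges with arrays left out were 0 to 31 for CKIα KO/p21 KO against CKIα KO, 13 to 34 for the average, and 0 to 10 and 0 to 7 for the differences of differences with p53 and p21 loss. Quantile normalization turned the 22 of CKIα KO/p53 KO against CKIα Het/p53 KO into 16, of which 15 were among the 22. It turned the 27 of the average into 21. With array weights the 22 became 27, and with the 4 arrays of that comparison alone they also became 27. The fits with an array left out or with 4 arrays have fewer samples. Where leaving out an array moved a count of members, the number called over all tested genes moved too. Leaving out 1 of a group's 2 arrays also takes that group's replicate spread out of the pooled estimate. All comparisons share that estimate, including those without that group. The cause of the other moves was not tested.

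The labels do not say that a replicate number marks shared animals or days, but Xist splits every group by it. Over all tested genes, deviations of same-numbered arrays correlated between -0.16 and 0.25 over 15 pairs of groups, above 0.1 in 5. With the replicate number as a block, the 2 members called for CKIα KO/p53 KO against CKIα KO became 13. The 78 tested genes called higher there became 218. No other count of called members changed.

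Directions turned as follows. Quantile normalization gave Gins2 -0.094 with p21 knocked out and Slbp -0.052 with p53 knocked out, where averaged probe sets gave Slbp -0.067. Leaving out arrays gave, with p53 and p21 present, -0.16 to 0.074 for Mcm2 and -0.33 to 0.0056 for Rrm1. With p21 knocked out it gave -0.38 to 0.40 for Gins2, -0.017 to 1.19 for Cdc6 and -0.22 to 0.50 for Tk1. With p53 knocked out it gave -0.11 to 0.26 for Slbp, -0.071 to 0.47 for Gins2 and -0.029 to 0.85 for Cdc6. For CKIα KO/p53 KO against CKIα KO it gave -0.0091 to 0.87 for Cdc6, -0.020 to 0.29 for Tyms and -0.12 to 0.016 for Gins3. None of these genes passed the test in the comparison named.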
